A study of Mus musculus with 3 samples.

Results

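Cells rich in transcripts of Cdkn1a, the gene of the cyclin-dependent kinase inhibitor p21, were picked out of 3 single-cell libraries of mouse submandibular gland organoids. A cell was called p21-rich when it held at least 2000 unique molecular identifiers (UMIs, each standing for 1 captured transcript), at least 500 detected genes, at most 20% of UMIs from mitochondrial genes, at least 3 Cdkn1a UMIs, and 0 UMIs summed over the proliferation genes Top2a and Mki67. The rule kept 2578 of the 44717 deposited barcodes, 579 in control, 1493 in photon and 506 in proton. They were compared within each library with cells inside the same limits that had 0 Cdkn1a UMIs, of which there were 6369, 4619 and 4122.

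The organoids are epithelial cultures grown in Matrigel from the submandibular glands of C57BL/6 mice aged 8 to 12 weeks, with 4 animals contributing, in a medium that held EGF, FGF2, dexamethasone, the kinase inhibitor Y27632, and R-spondin1 and Wnt3a conditioned media in every group. They were left unirradiated (control) or given 7 Gy of photons or 7 Gy of protons (plateau) on day 5, and were collected on day 11, which is 6 days after irradiation. Each group is 1 library in which material of the animals was pooled, and dead cells were removed by a propidium iodide sort. Since a group is a single library, differences between groups have no replicate check, and intervals on shares and ratios are exact 95% intervals that cover counting error only. The contrast of p21-rich with Cdkn1a-negative cells was made in all 3 libraries, which stand in for replicates of that contrast although each had a different treatment.

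The protein p21 is made when the transcription factor p53 is stabilised after DNA damage, and it binds cyclin-dependent kinases so that a cell does not enter S phase. Such an arrest can be brief, with repair and return to the cycle, or it can turn into senescence, a lasting arrest known for the inhibitor p16 (a product of Cdkn2a), loss of the nuclear lamin B1, enlarged lysosomes and secretion of cytokines, growth factors and proteases. In many epithelia p21 is also made without damage, when basal cells leave the cycle and differentiate. Salivary ducts have an inner luminal layer, marked by keratins 8, 18, 19 and 7, and an outer basal layer, marked by keratins 5 and 14 and the transcription factor p63.

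The promoter windows of the rule's gene and of genes under the same transcription factor were read from RefSeq (GRCm38.p6), as 250 bases before to 50 bases after each start. They were searched for the full p53 site, which is a pair of half-sites of 10 letters with no spacer, with the C and the G that bound the 4-letter core of each half-site kept and at most 2 mismatches elsewhere, the 2 inner core letters included. The consensus is its own reverse complement, so a search of 1 strand covered both. It was found in 107 of 32851 windows of all genes (0.326%) and in 3 of 47 windows of Cdkn1a and the p53 target list (6.38%). Of the 41 genes in question 32 had a window. The 250 bases before the start are printed for these 3 genes, 5′ to 3′ along the gene, with the matching site in capitals, because Cdkn1a defines the cells and the other two are the listed targets with a match.
Cdkn1a (chr17:29090729-29090978, plus strand, first base of the site 51 bases before the start, 1 mismatch): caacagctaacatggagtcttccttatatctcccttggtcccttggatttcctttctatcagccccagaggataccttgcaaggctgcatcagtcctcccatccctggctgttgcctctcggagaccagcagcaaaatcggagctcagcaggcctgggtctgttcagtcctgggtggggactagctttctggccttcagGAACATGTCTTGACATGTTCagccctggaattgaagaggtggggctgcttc
Ccng1 (chr11:40755287-40755536, minus strand, 195 bases before the start, 1 mismatch): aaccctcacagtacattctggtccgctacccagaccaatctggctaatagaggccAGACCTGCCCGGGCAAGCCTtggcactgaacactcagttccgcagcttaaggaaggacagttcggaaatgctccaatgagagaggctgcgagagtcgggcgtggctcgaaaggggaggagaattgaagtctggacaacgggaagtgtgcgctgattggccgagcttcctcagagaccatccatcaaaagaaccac
Zfp365 (chr10:67912663-67912912, minus strand, 63 bases before the start, 2 mismatches): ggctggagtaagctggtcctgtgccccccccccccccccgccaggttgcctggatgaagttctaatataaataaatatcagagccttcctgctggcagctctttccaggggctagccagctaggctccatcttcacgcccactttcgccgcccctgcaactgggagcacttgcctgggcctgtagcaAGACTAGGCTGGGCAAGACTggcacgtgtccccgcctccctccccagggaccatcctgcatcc
A match describes letters and not binding, and sites farther from the start were not searched.

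The share of p21-rich cells was highest in the photon library. As counted it was 6.21% in control (579 of 9330 cells inside the other limits, interval 5.72 to 6.71), 16.2% in photon (1493 of 9243, 15.4 to 16.9) and 7.51% in proton (506 of 6741, 6.89 to 8.16). The interval of photon lay above the other two, and those of control and proton did not overlap each other. With a limit of 5 Cdkn1a UMIs they did overlap, at 2.14% in control (1.86 to 2.46) and 2.17% in proton (1.83 to 2.54). To take out depth, each cell was thinned at random to 2000 UMIs. At least 2 Cdkn1a UMIs were then found in 6.07% of control cells (5.59 to 6.57), 15.9% of photon cells (15.1 to 16.6) and 7.79% of proton cells (7.16 to 8.45). At least 1 was found in 21.7%, 37.9% and 27.1%. At least 3 were found in 2.14% of control (1.86 to 2.46) and 2.64% of proton cells (2.27 to 3.05), where the intervals overlapped. All of these shares left out cells with fewer than 2000 UMIs. No cell type known to lack Cdkn1a was among those fixed for the analysis, so the share that free RNA gives was not measured.

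**Figure D1:**
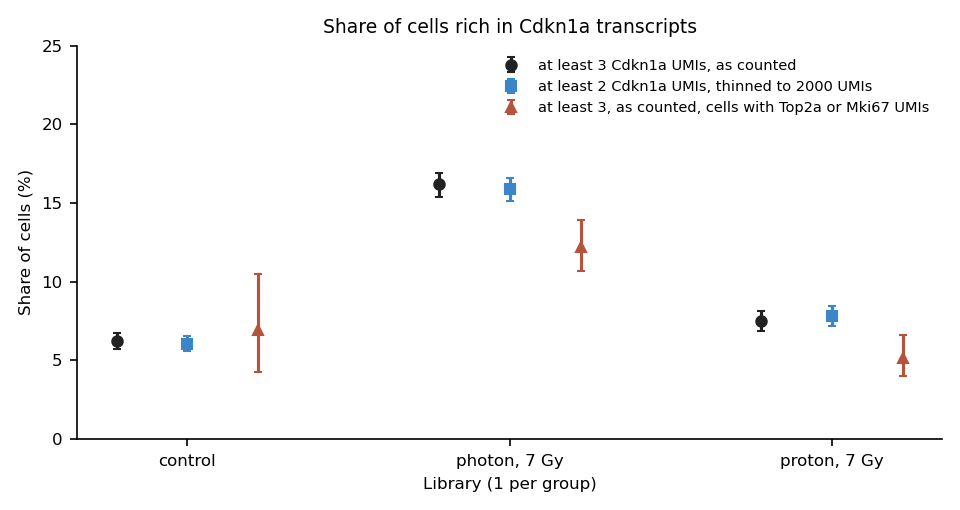
Share of cells (%) rich in Cdkn1a transcripts in each library, as counted, after thinning every cell to 2000 UMIs, and among cells with Top2a or Mki67 UMIs; points are shares and bars exact 95% binomial intervals. The photon library stands highest in all 3 ways of counting, at 16.2%, 15.9% and 12.2%.

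Cells with Top2a or Mki67 UMIs, which the rule leaves out, also held Cdkn1a transcripts. At least 3 Cdkn1a UMIs were counted in 20 of 290 such cells in control (6.90%, 4.26 to 10.5), 201 of 1648 in photon (12.2%, 10.7 to 13.9) and 62 of 1198 in proton (5.18%, 3.99 to 6.59). After thinning, at least 2 were found in 5.17%, 7.40% and 3.17%. The intervals of cycling and other cells overlapped in control, while in photon and proton the share was lower in cycling cells by both counts.

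The p21-rich cells were deeper than the cells they were compared with. The control, photon and proton medians were 4482, 3928 and 4079.5 UMIs, against 3041, 3005 and 2827.5 in Cdkn1a-negative cells. All comparisons of levels therefore used counts thinned to 2000 UMIs per cell, summed per library and scaled to CPM (UMIs of a gene per 1000000 UMIs summed). Mitochondrial genes held a median of 2.78%, 2.28% and 1.56% of UMIs in p21-rich cells and 2.62%, 1.93% and 1.51% in Cdkn1a-negative ones. Ribosomal protein genes held 14.1%, 14.1% and 14.3% against 16.9%, 19.3% and 20.8%, and the part of this lower share in the results was not tested. In the thinned sums Cdkn1a (ENSMUSG00000023067, chromosome 17, 29090976 to 29100727) stood at 1060, 1210 and 1030 CPM in the p21-rich cells of control, photon and proton, which the rule fixes and which is no finding. The 3 deposited matrices shared 55 to 61 barcodes pairwise, of which at most 7 were p21-rich in either library.

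The fit across 6 sums, with library as a block, tested 10090 genes, of which 1521 (15.1%) were higher and 719 (7.13%) lower in p21-rich cells at a Benjamini-Hochberg adjusted p under 0.05 (edgeR's quasi-likelihood test). Cdkn1a, Top2a and Mki67 were left out of the test, being used by the rule. The median log2 fold change over all genes tested was 0.10, and under TMM factors, which remove that shift, 995 genes were higher and 1066 lower, so the share of calls that were higher went from 67.9% to 48.3%. List medians below are to be read against 0.10. The calls rest on the pairing within libraries: without the block 6 genes were higher and 0 lower (531 and 226 at an unadjusted p under 0.05). Leaving out the photon library, which holds 1493 of the 2578 p21-rich cells, gave 608 and 269 calls, leaving out proton 803 and 360, and leaving out control 2159 and 1010. DESeq2 called 429 and 476.

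Genes under p53 stood higher as a group. Of 40 listed targets 38 had enough counts to be tested, and 28 of them (73.7%, against 15.1% of all genes) rose and 0 fell, with a median log2 fold change of 0.67. At an unadjusted p under 0.05 the same edgeR test gave 29 and 0, and DESeq2 called 15 and 0. The list was chosen with earlier results of these libraries known, so its direction is not independent evidence. Without the photon library 16 were called, with a median of 0.55. Gdf15, among the 28, reached the minimum mean of 5 CPM set for testing only through p21-rich cells. With no such minimum 28 of the 40 listed targets were higher (70%, against 6.94% of all genes in that fit) and 0 lower.

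Mdm2, the ubiquitin ligase that destroys p53 and is itself switched on by it (ENSMUSG00000020184, chromosome 10, 117688875 to 117710758), stood at 121 CPM in p21-rich and 57.9 CPM in Cdkn1a-negative cells of control, 226 and 78.3 in photon, and 272 and 110 in proton. The p21-rich value was above the Cdkn1a-negative value of its own library in each case, although the control p21-rich cells were close to the proton Cdkn1a-negative ones. The log2 fold change was 1.32 ± 0.10 (SE, edgeR adjusted p = 1.19e-11), with ratios of 2.09 (1.73 to 2.51), 2.89 (2.60 to 3.21) and 2.48 (2.16 to 2.84). At least 1 Mdm2 UMI was left after thinning in 21.1%, 31.2% and 37.2% of p21-rich cells against 10.5%, 13.4% and 17.1% of Cdkn1a-negative cells.

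Ccng1, whose product cyclin G1 recruits a phosphatase to MDM2 and whose promoter is printed above (ENSMUSG00000020326, chromosome 11, 40748552 to 40755311), stood at 321 against 134 CPM in control, 447 against 204 in photon and 528 against 257 in proton. Its 3 p21-rich values lay above all 3 Cdkn1a-negative values, and the log2 fold change was 1.14 ± 0.09 (SE, edgeR adjusted p = 9.25e-12). Trp53inp1, a stress protein that favours p53-driven arrest and death (ENSMUSG00000028211, chromosome 4, 11156431 to 11174379), stood at 309 against 140, 359 against 139 and 663 against 324 CPM, a log2 fold change of 1.18 ± 0.09 (SE, edgeR adjusted p = 9.13e-12). Here the proton Cdkn1a-negative cells reached the level of the control p21-rich cells, while within each library the p21-rich cells were higher.

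Other targets that rose act in different arms of the response. Among genes of cell death, Bax, the pore-forming effector of mitochondrial apoptosis, rose by 0.84 on the log2 scale with 316 to 441 CPM in p21-rich and 177 to 246 CPM in Cdkn1a-negative cells. The death receptor gene Eda2r rose by 1.00 and Fas by 0.74. The BH3-only genes Bbc3 (PUMA) and Pmaip1 (NOXA) rose by 0.86 and 0.59, calls that were lost without the photon library and, for Pmaip1, also without proton. Among genes of growth control, Zmat3, which encodes an RNA-binding protein, rose by 1.01, Btg2, an antiproliferative gene, by 0.76, and Psrc1, a spindle gene, by 1.52. Among genes of repair and nucleotide supply, the translesion polymerase gene Polk rose by 1.14 and the p53-inducible ribonucleotide reductase subunit gene Rrm2b by 0.94.

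The largest rise on the list was that of Gdf15, which encodes a secreted stress cytokine (ENSMUSG00000038508, chromosome 8, 70629393 to 70632456). It stood at 23.3 against 5.26 CPM in control, 28.8 against 4.87 in photon and 21.7 against 3.15 in proton, a log2 fold change of 2.47 ± 0.22 (SE). The 3 p21-rich values lay close together and far above the others. Without the p21-rich cells Gdf15 was too low to reach the minimum mean of 5 CPM, so its test supports nothing. The p21-rich values came from few cells, with a Gdf15 UMI after thinning in 3.63%, 3.95% and 3.75% of p21-rich cells. Of Cdkn1a-negative cells 0.879%, 0.888% and 0.534% held such a UMI.

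Some p53 targets did not pass the test. The nucleotide excision repair genes Ddb2 and Xpc had log2 fold changes of 0.01 and 0.22, Sesn1 (a sestrin that restrains mTORC1) 0.21, Perp (a desmosomal and apoptosis gene of stratified epithelia) 0.21 and Ppm1d (a phosphatase that turns the p53 response off) 0.01. Zfp365, the third gene with a promoter match, stood at 2.59 against 2.28, 9.38 against 6.28 and 12.8 against 11.4 CPM, a log2 fold change of 0.38 ± 0.29 (SE, edgeR adjusted p = 0.384). The other targets outside the calls were Plk3, Ptp4a3, Rap2b and Abhd4. Mdm4, the partner of MDM2, belongs to the list of DNA damage signalling and repair and rose by 0.57. It was the only 1 of 26 members of that list to rise (3.85%, against 15.1% of all genes). Xrcc5, which encodes Ku80, was the 1 that fell, by 0.46 (3.85%, against 7.13%).

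**Figure D2:**
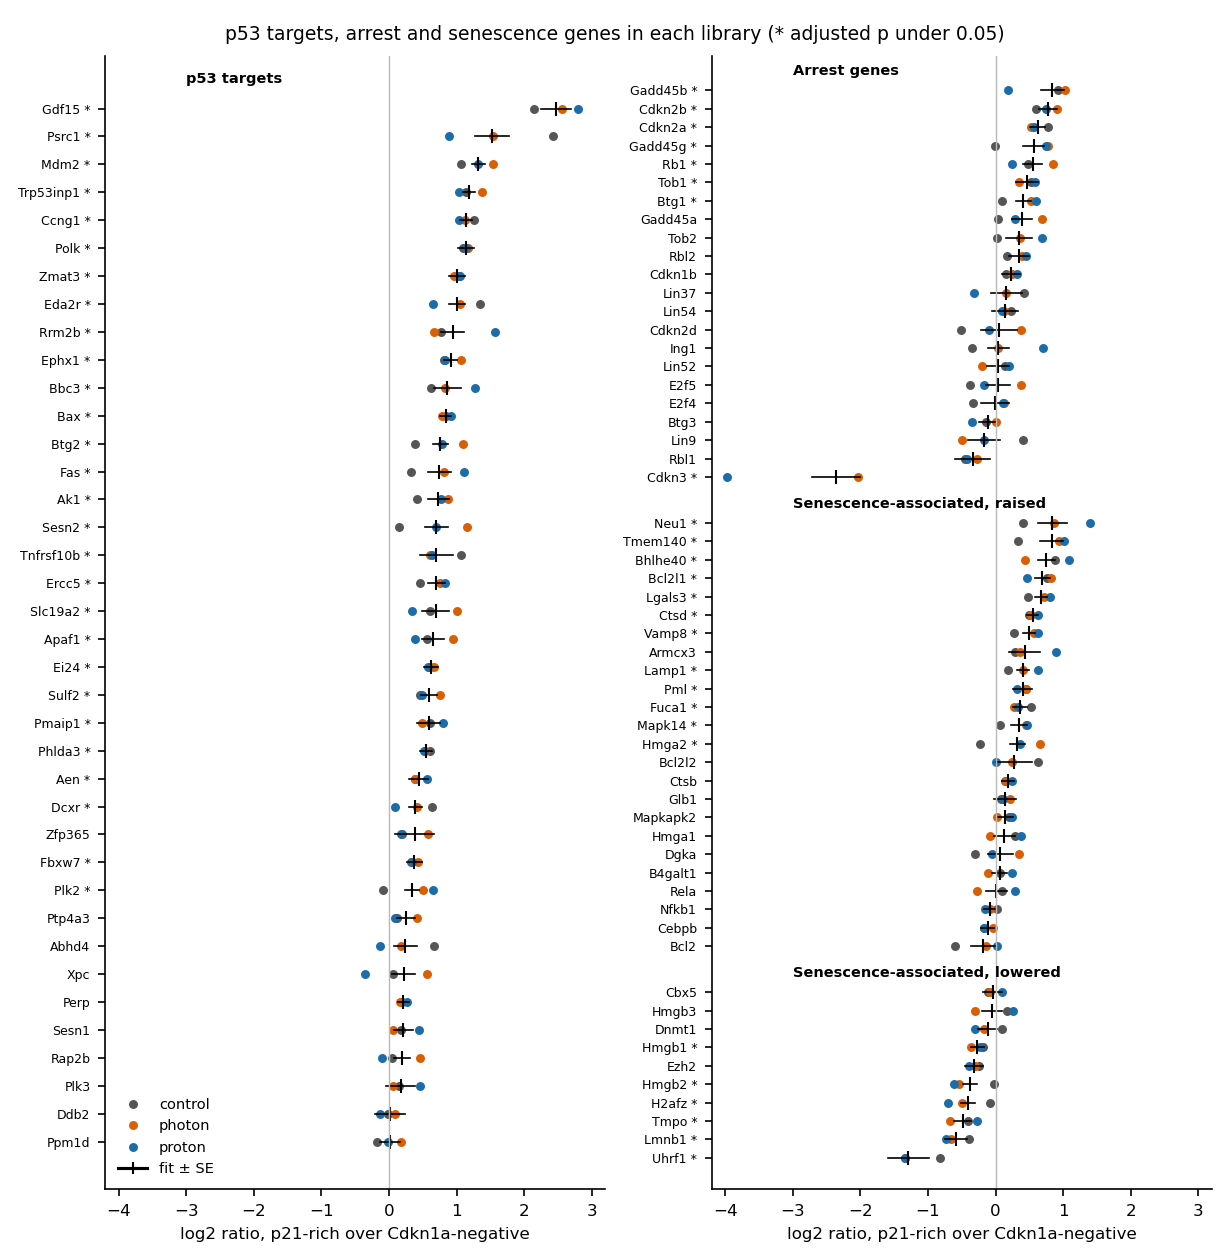
log2 ratio of thinned CPM in p21-rich over Cdkn1a-negative cells for the tested p53 targets (left) and arrest and senescence genes (right); points are the 3 libraries, ticks and lines the fitted fold change ± SE, stars edgeR adjusted p under 0.05, and a library with a count of 0 has no point. The p53 targets from Gdf15 down to Bax lie to the right of 0 in every library, and the arrest and senescence genes spread less, mostly between -1 and 1.

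Some arrest genes other than Cdkn1a rose as well. Of 22 tested members of a list of kinase inhibitors, pocket proteins and antiproliferative genes, 7 rose (31.8%, against 15.1% of all genes) and 1 fell (4.55%, against 7.13%), with a median log2 fold change of 0.19. Cdkn2a, which encodes the senescence inhibitors p16 and ARF (ENSMUSG00000044303, chromosome 4, 89274471 to 89294653), stood at 93.3 against 54.6 CPM in control, 117 against 80.6 in photon and 80.0 against 53.7 in proton. Within each library the p21-rich cells were higher, while the proton p21-rich cells did not exceed the photon Cdkn1a-negative ones. The log2 fold change was 0.62 ± 0.11 (SE, edgeR adjusted p = 9.91e-05), and counts of a 3′ assay do not separate the transcripts of p16 and ARF. Its neighbour Cdkn2b, which encodes p15, rose by 0.77 with 52.7 against 35.1, 70.3 against 37.7 and 39.5 against 23.5 CPM.

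The pocket protein gene Rb1 rose by 0.55, the stress genes Gadd45b and Gadd45g by 0.84 and 0.56, and the antiproliferative genes Btg1 and Tob1 by 0.41 and 0.46. Without the photon library 2 of these 7 were called, Cdkn2a and Cdkn2b. Cdkn1b, which encodes the relative p27, stood at 60.4 against 54.1, 46.6 against 39.3 and 31.6 against 25.6 CPM, a log2 fold change of 0.23 ± 0.13 (SE, edgeR adjusted p = 0.237). Cdkn3, the member that fell, is a phosphatase gene that peaks in cycling cells. It stood at 0 against 0.942, 4.35 against 17.9 and 0.988 against 15.5 CPM, so it reached the minimum mean of 5 CPM only through the irradiated Cdkn1a-negative cells, and its call supports nothing. Among 8 tested G1 cyclins and partners, Ccnd1 and Ccnd3, which encode D-type cyclins that pair with CDK4 and CDK6, rose by 0.29 and 0.60, and Myc fell by 0.36. These are 25% and 12.5% of the 8, against 15.1% and 7.13% of all genes. The calls of Ccnd1 and Myc were lost in many alternatives, including without the photon library for Ccnd1 (0.32) and without the control library for Myc (-0.18), and that of Ccnd3 in none but the fit without the block.

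Genes of DNA replication and mitosis were lower in the p21-rich cells of the irradiated libraries. Both classes were held to 0 Top2a and Mki67 UMIs, but before thinning. The limit was thus stricter on the deeper p21-rich cells, and its part in these results was not tested. Of 31 tested S phase genes 0 rose and 15 fell (48.4%, against 7.13% of all genes), with a median of -0.61, and of 19 tested G2 and M phase genes 1 rose and 11 fell (57.9%), with a median of -0.76. Some members, such as Mcm5, Tk1 and Ccnb2, reached the minimum mean of 5 CPM only through Cdkn1a-negative cells. With no such minimum, 20 of the 41 listed S phase genes were called lower (48.8%) and 0 higher. Of the 41 listed G2 and M phase genes 21 were then lower (51.2%) and 1 higher (2.44%). In that fit 3.66% of all 21571 genes were lower and 6.94% higher. For S phase the counts at an unadjusted p under 0.05 were 0 and 24, and DESeq2 called 0 and 9. The S phase medians of control, photon and proton were -0.09, -0.75 and -0.79, and those of G2 and M phase 0.07, -0.86 and -1.06. Dtl, which targets the licensing factor CDT1 for destruction, stood at 4.32 against 4.08 CPM in control, 6.03 against 22.1 in photon and 4.94 against 30.0 in proton. The centromere gene Cenpa followed with 5.18 against 5.65, 10.0 against 38.8 and 3.95 against 23.7 CPM. In both genes the Cdkn1a-negative cells of the irradiated libraries stood apart from the other 4 sums. Leaving out photon, 4 S phase and 2 G2 and M phase genes were lower, and the difference between libraries was not tested.

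Genes tied to senescence were split by kind. Of 24 tested genes that are raised in senescent cells, 12 rose (50.0%, against 15.1% of all genes) and 0 fell, with a median of 0.33. The counts were 12 and 0 at an unadjusted edgeR p under 0.05, and 5 and 0 by DESeq2. Of 10 tested genes whose loss marks senescence, 0 rose and 6 fell (60%, against 7.13% of all genes), with a median of -0.35. For these the counts were 0 and 7 at an unadjusted edgeR p under 0.05, and 0 and 3 by DESeq2. Of 32 tested secretory factors 10 rose (31.2%, against 15.1% of all genes) and 7 fell (21.9%, against 7.13%), with a median of 0.06. That balance turned under TMM factors (9 higher and 10 lower), DESeq2 (3 and 5), keratin weighting (6 and 8), depth weighting (7 and 9) and the Cdkn1a limit applied after thinning (9 and 10), and without control (9 and 11). Without the photon library the counts were 6 higher, 0 lower, and 9 higher with 6 lower, in that order, and without proton 6 higher, 3 lower, and 9 higher with 6 lower. Il1a, among the secretory factors called higher, reached the minimum mean of 5 CPM only through p21-rich cells. With no such minimum 10 of the 46 listed factors were higher (21.7%) and 8 lower (17.4%), against 6.94% and 3.66% of all genes in that fit.

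Among the raised genes, several belong to lysosomes. Ctsd, the aspartic protease cathepsin D, stood at 657 against 465 CPM in control, 790 against 546 in photon and 1040 against 679 in proton, and rose by 0.55. The lysosomal membrane gene Lamp1 rose by 0.41, a call lost without proton. The fucosidase gene Fuca1 rose by 0.36 and the sialidase gene Neu1 by 0.84, calls lost when either irradiated library was left out. Glb1, the source of the senescence-associated beta-galactosidase, stood at 27.6 against 26.2, 26.5 against 22.8 and 26.7 against 24.7 CPM, and did not pass the test (0.14 ± 0.16 SE, edgeR adjusted p = 0.578). Bcl2l1, which encodes the survival protein BCL-XL, stood at 89.8 against 53, 104 against 59 and 135 against 98.4 CPM and rose by 0.69. Lgals3, a galectin gene, rose by 0.67 and Bhlhe40 (DEC1) by 0.75.

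Lmnb1, the gene of lamin B1, stood at 28.5 against 37.4 CPM in control, 25.1 against 39.7 in photon and 15.8 against 26.3 in proton. It was lower in p21-rich cells of each library and fell by 0.59 on the log2 scale (SE 0.16, edgeR adjusted p = 0.00653). Without the photon library the log2 fold change was -0.52 and the call was lost. Hmgb2, a chromatin protein gene, fell by 0.38, Tmpo, which encodes the lamina-associated LAP2, by 0.49, and the histone variant gene H2afz by 0.41. H2afz stood at 649 against 685 CPM in control, 560 against 792 in photon and 224 against 366 in proton, so the control values lay closest together. These 3 calls were also lost without the photon library, and Uhrf1 and Hmgb1, the other members that fell, likewise. Uhrf1 reached the minimum mean only through the irradiated Cdkn1a-negative cells. Many genes of this list are also highest in cycling cells, which moved with it as given above, and the part of the cell cycle in it was not tested.

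The secretory factors did not move as one group. Fn1, the matrix protein fibronectin, stood at 72.5 against 27.6, 100 against 30.2 and 146 against 58.7 CPM and rose by 1.49, but by 0.27, without a call, once the Cdkn1a-negative cells were weighted to the keratin levels of the p21-rich cells. Inhba, the activin subunit gene, rose by 0.79 and the protease inhibitor gene Timp2 by 0.67. Timp1 fell by 0.97, the platelet-derived growth factor gene Pdgfa by 0.60, the matricellular gene Ccn1 by 0.66 and the binding protein genes Igfbp2 and Igfbp4 of insulin-like growth factors by 2.29 and 1.32. Il6, the cytokine most often named for senescence, had 0 UMIs after thinning in p21-rich cells of all 3 libraries, and Il1b had 0 as well. In the far more numerous Cdkn1a-negative cells (15110), 0 of the listed factors lacked thinned UMIs. A count of 0 in the 579, 1493 and 506 thinned p21-rich cells limits detection only.

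Among the cytokine genes of this list, Il1a and Cxcl2 were held by few control cells. Il1a, an alarmin, stood at 73.4 against 4.55 CPM in control, 5.02 against 1.62 in photon and 2.96 against 1.70 in proton, a log2 fold change of 3.09. It reached the minimum mean of 5 CPM only through the control p21-rich cells, so its test supports nothing. Cxcl2 and Cxcl5, which encode neutrophil chemokines, rose by 1.56 and 1.35 and Ccl20 by 1.61, and without the control library Cxcl2 and Cxcl5 stood at 0.49 and 0.63. Of 579 control p21-rich cells, 33 held an Il1a UMI after thinning, with up to 16 in 1 cell, and 32 a Cxcl2 UMI, with up to 84 in 1 cell. Under a rule that applies the thinning first, with at least 2 against 0 Cdkn1a UMIs, Cxcl2 stood at -0.11. Counting intervals understate the error of such genes.

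Some of these control cells also carried genes of surface and squamous epithelium. The genes with the highest fold changes in p21-rich cells included Psca, a cell surface antigen gene of bladder and stomach epithelium, and Sprr2d and Sprr2f, which encode cornified envelope proteins, together with Ppbp and Cxcl3, which encode chemokines. With the Cdkn1a limit applied after thinning, Sprr2d (-0.50), Sprr2f (-1.31) and Cxcl3 (-0.14) turned direction and Psca stood at 0.64. Psca stood at 503 against 5.02 CPM in control, 132 against 24.4 in photon and 12.8 against 3.28 in proton. In control its 583 UMIs lay in 24 cells, 1 of which held 184, and in photon 1 cell held 205 of 394. Of p21-rich cells, 38 in control (6.56%), 17 in photon (1.14%) and 6 in proton (1.19%) held a Psca, Sprr2d or Sprr2f UMI after thinning. The 38 held 71.8% of the Il1a, 82.5% of the Cxcl3 and 80.1% of the Ppbp UMIs of control p21-rich cells. Their summed p53 targets stood at 3700 CPM against 4210 CPM in the other control p21-rich cells, and their summed luminal duct markers at 8330 against 5840 CPM. Fitted without such cells, a step added after seeing the data, Il1a stood at 1.89, Cxcl3 at 1.32 and Ppbp at 1.65, and 28 p53 targets were higher and 0 lower. Paralogs of the Sprr2 and Klk1b families are near-identical, and their counts are uncertain where reads could be shared.

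Cst6 was found in a larger share of p21-rich cells than Psca, Klk1b11, Ltf or Arg1 in each library. Cst6, a cysteine protease inhibitor gene (ENSMUSG00000024846, chromosome 19, 5344705 to 5349574), stood at 124 against 15.1 CPM in control, 301 against 58.0 in photon and 448 against 81.4 in proton, a log2 fold change of 2.56 ± 0.11 (SE, edgeR adjusted p = 1.71e-17). The lowest of the 3 p21-rich values lay above the highest Cdkn1a-negative value. Its UMIs were found in 14.9%, 30.1% and 37.5% of p21-rich and 2.67%, 7.69% and 11.0% of Cdkn1a-negative cells after thinning. Mal, a gene of apical membrane transport, was even across libraries with 125 against 15.1, 135 against 23.7 and 122 against 26.8 CPM and rose by 2.58. Klk1b11, a kallikrein gene, stood at 50.1 against 3.14, 70.7 against 6.28 and 36.6 against 4.37 CPM, a log2 fold change of 3.53. It reached the minimum mean of 5 CPM only through p21-rich cells, so its test supports nothing. Klk1b11 was held by few cells, with a UMI after thinning in 20 of 579, 58 of 1493 and 19 of 506 p21-rich cells. Ltf (lactoferrin, an iron-binding defence protein), Arg1 (arginase 1), Sorbs2 and Ano3 rose by 2.35, 2.81, 2.35 and 2.20, and the 38 control cells described above held 42.3% of the Ltf and 44.9% of the Arg1 UMIs of control p21-rich cells.

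Among genes with a mean of at least 25 CPM that were lower in all 3 libraries, Apoe, Sostdc1, Lgals7 and Lmo1 fell furthest. Apoe, which encodes the lipid carrier apolipoprotein E (ENSMUSG00000002985, chromosome 7, 19696109 to 19699188), stood at 11.2 against 51.7 CPM in control, 16.1 against 115 in photon and 4.94 against 47.4 in proton, a log2 fold change of -2.75 ± 0.18 (SE, edgeR adjusted p = 2.61e-13). Sostdc1, which encodes an antagonist of BMP and Wnt signalling (ENSMUSG00000036169, chromosome 12, 36314139 to 36318452), stood at 36.3 against 138, 74.7 against 386 and 13.8 against 107 CPM, a log2 fold change of -2.34 ± 0.13 (SE, edgeR adjusted p = 5.31e-15). For both genes all p21-rich values lay below all Cdkn1a-negative values. Lgals7, a galectin gene of stratified epithelium, and Lmo1, a transcriptional cofactor gene, fell by 2.09 and 1.87. Adamts9, Fhod3, Vsnl1, Gas1 (a growth arrest gene named for quiescent fibroblasts), Clca3a2, the receptor gene Ntrk3 and the matrix gene Tnc fell by 1.44 to 1.63.

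Markers of the duct layers moved with the p21 class. Of 10 tested luminal duct markers 9 rose (90%, against 15.1% of all genes) and 0 fell, with a median of 0.99. At an unadjusted edgeR p under 0.05 also 0 fell, and DESeq2 called 8 and 0. Krt8 stood at 379 against 187 CPM in control, 675 against 342 in photon and 681 against 312 in proton, and rose by 1.04. Cldn3 and Cldn4, which encode tight junction claudins, rose by 1.56 and 1.28 and the epithelial transcription factor gene Elf3 by 1.14. Of 10 basal markers 0 rose and 8 fell (80%, against 7.13% of all genes), with a median of -0.44. Krt14 stood at 962 against 1760, 1060 against 2490 and 380 against 909 CPM and fell by 1.12, and Trp63 and Col17a1 (a hemidesmosome gene) fell by 1.10 and 1.12. Summed luminal markers stood at 5230 to 7430 CPM in p21-rich and 3260 to 5020 CPM in Cdkn1a-negative cells, and summed basal markers at 2020 to 3660 and 3290 to 5600 CPM.

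Markers of other cell types were near 0. Myoepithelial, fibroblast, immune, endothelial, erythroid and neural lists had 0 members with enough counts to be tested, and their summed levels in p21-rich cells ranged from 0 to 12.8 CPM. Granular tubule and ionocyte markers were low but higher in p21-rich cells, at 13.8 to 29.6 against 3.53 to 7.16 CPM and 26.8 to 45.5 against 2.75 to 7.52 CPM in sum. Of the ionocyte list, Cftr (a chloride channel) stood at 13.8 against 1.73, 15.1 against 3.03 and 15.8 against 3.52 CPM and Atp6v0d2 (a proton pump subunit) at 11.2 against 0.628, 25.5 against 3.46 and 27.7 against 3.88 CPM. Both passed the minimum mean only through the p21-rich cells, so their test supports nothing. Of 5 pericyte markers 1 was tested, the receptor gene Notch3, which rose by 0.74, and their sum stood at 19.0 to 32.6 against 13.6 to 20.9 CPM. Of 10 acinar markers 2 were tested, and Aqp5, the apical water channel of acinar cells, stood at 12.1 to 17.4 CPM in Cdkn1a-negative cells, through which alone it reached the minimum mean, and at 1.67 to 6.91 CPM in p21-rich cells.

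Because the keratins moved with the class, the comparison was repeated with them held closer. Cells were split in each library at the median of the UMIs of Krt8, Krt18, Krt19 and Krt7. The share of p21-rich cells was 10.1% above and 3.8% at or below it in control, 24.1% and 10.2% in photon, and 12.0% and 4.73% in proton. Within the lower and the upper part the summed p53 targets were 1.39 and 1.40 times as high in p21-rich as in Cdkn1a-negative cells of control, 1.65 and 1.56 in photon, and 1.73 and 1.58 in proton. With Cdkn1a-negative cells weighted to the luminal and basal keratin UMIs of the p21-rich cells, 626 of 10079 genes were higher (6.21%) and 334 lower (3.31%). Among them 25 of 38 p53 targets were higher and 0 lower (median 0.56), while 6 of 10 luminal markers were higher, with a median of 0.31. Krt8, Krt18, Krt19 and Krt7 are on that marker list and set the weights, so their part of the luminal values was fixed in advance. Arrest genes had 3 higher and 1 lower, the raised senescence genes 7 and 0, and S phase genes 0 and 7. The split was chosen after seeing the data.

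The levels were graded with the number of Cdkn1a UMIs rather than stepped at the limit of 3. Summed p53 targets stood at 2990 CPM in control cells with 0 Cdkn1a UMIs, 3330 with 1, 3690 with 2, 3970 with 3 and 4260 with 4 to 5. In photon the order was 2900, 3690, 4040, 4480 and 4780 CPM, and in proton 2900, 3730, 4250, 4540 and 5040 CPM. At 6 to 9 and at 10 or more UMIs the sums were 4250 and 5010 CPM in control, 4860 and 5340 in photon, and 4660 and 4250 in proton, so in proton they were lower again. Cells just outside the limit thus stood between the others, with 631, 1113 and 557 cells at 2 UMIs and 243, 593 and 236 cells at 3. Summed basal markers in photon went from 5600 CPM at 0 to 2530 CPM at 10 or more, and summed S phase genes from 905 to 350 CPM. In control the S phase sum was 520 CPM at 0, 520 at 2 and 368 at 10 or more. The top class held 34, 70 and 14 cells, so its values rest on few cells, and cells with more Cdkn1a UMIs were deeper before thinning. These grades are a description with no test.

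**Figure D3:**
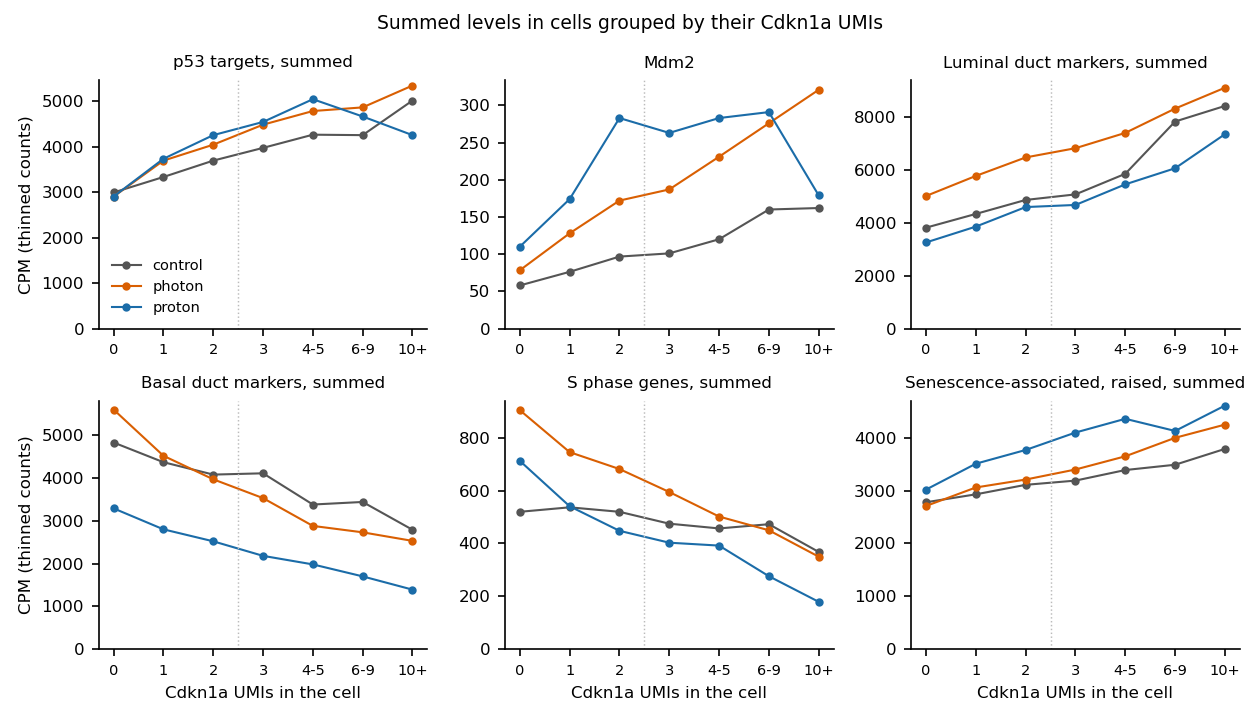
Summed CPM of gene lists and of Mdm2 (thinned counts, vertical axes from 0) in cells grouped by their Cdkn1a UMIs as counted, in each library; the dotted line marks the limit of the p21-rich class between 2 and 3. The p53 and luminal sums are higher and the basal sums lower at 3 UMIs than at 0 in every library.

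Interferon, antioxidant and growth factor response genes were also counted, beside 15.1% of all genes higher and 7.13% lower. Of 47 tested interferon genes 19 rose (40.4%) and 1 fell, with a median of 0.29, and their summed level in p21-rich cells was 1.23, 1.02 and 0.947 times that of Cdkn1a-negative cells in control, photon and proton. The count of higher interferon genes was 10 under TMM factors, 3 by DESeq2 and 4 under keratin weighting. Of 19 MHC class I genes 0 rose and 2 fell (10.5%). At an unadjusted p under 0.05 the edgeR counts of this list were 3 and 3, and DESeq2 called 0 and 1. Of 19 targets of NRF2, the regulator of glutathione and antioxidant genes, 7 rose (36.8%) and 0 fell. The counts were 8 and 1 at an unadjusted edgeR p under 0.05, and 6 and 0 by DESeq2. Gclc, the rate-limiting enzyme of glutathione synthesis, stood at 864 against 718, 1150 against 577 and 1150 against 536 CPM and rose by 0.79. Of 26 immediate early and heat shock genes 9 rose (34.6%), among them Jund by 0.64, and 1 fell (3.85%). Of 16 TGF-beta response genes 6 rose (37.5%) and 2 fell (12.5%). Among them Id2, an inhibitor of basic helix-loop-helix factors, was up by 1.29 and Tgfbi down by 2.16. Without the photon library the interferon, immediate early and TGF-beta counts of higher genes were 8, 3 and 1.

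Cholesterol genes stood lower in the p21-rich cells of both irradiated libraries and not in those of control. Of 18 enzymes and regulators of cholesterol synthesis 0 rose and 8 fell (44.4%, against 7.13% of all genes). The counts were 0 and 10 at an unadjusted edgeR p under 0.05, and 0 and 2 by DESeq2. Medians were 0.33, -0.81 and -0.79 in control, photon and proton. Once photon was left out, 0 were called in either direction. Of 22 hypoxia and glycolysis genes 2 rose (9.09%, against 15.1% of all genes) and 10 fell (45.5%). Their median was -0.30 in the fit and -0.01 in control. The carbonic anhydrase gene Car9 stood at 11.2 against 24.9, 10.7 against 26.4 and 3.95 against 23.3 CPM and fell by 1.44. Of the hypoxia and glycolysis list 3 genes were lower without the photon library. Squamous differentiation genes had 6 higher (33.3%) and 7 lower (38.9%) of 18. Their median changed from 0.21 to -0.18 without the cells that held Psca, Sprr2d or Sprr2f UMIs. The remaining lists, of apoptosis, NF-kB, ATF4 and unfolded protein, YAP, glucocorticoid and EGF receptor genes, had 0 to 6 members higher and 0 to 6 lower, with medians between -0.12 and 0.27. Their shares were 0 to 37.5% higher and 0 to 28.6% lower, against 15.1% and 7.13% of all genes.

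**Figure D4:**
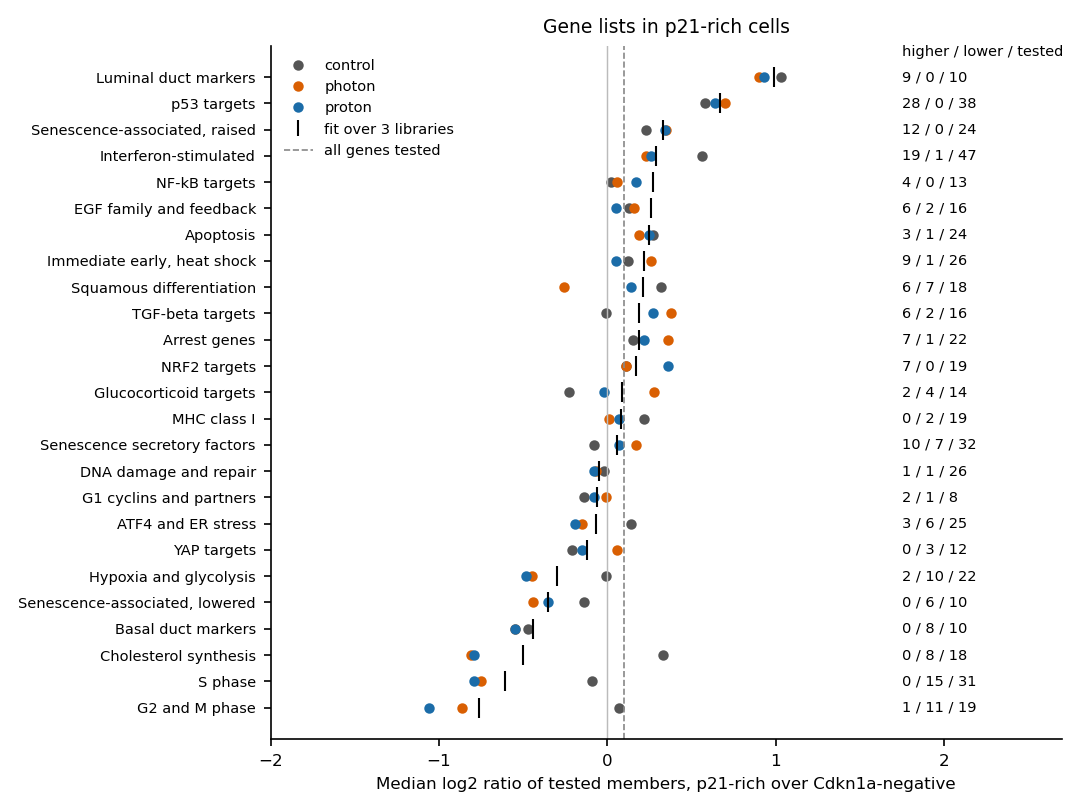
Median log2 ratio of p21-rich over Cdkn1a-negative cells for tested members of each gene list, with points for the 3 libraries, black ticks for the fit and a dashed line for all genes tested; numbers at the right are genes higher, lower and tested. Luminal duct markers (0.99) and p53 targets (0.67) stand highest, and in the S phase, G2 and M phase and cholesterol lists control lies apart from both irradiated libraries.

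Between libraries, p21-rich cells of photon and proton were set against those of control, beside the same ratios in Cdkn1a-negative cells. The comparisons of photon and proton share the control library, and genes are counted by size alone (at least 1.5-fold, mean of at least 25 CPM). Members of the gene lists were counted at a mean of at least 5 CPM instead. In p21-rich cells 283 of 5864 genes were higher (4.83%) and 330 lower (5.63%) in photon, and 1170 of 5979 higher (19.6%) and 1010 lower (16.9%) in proton. Scaled by the median of gene ratios, the photon counts were 331 and 248, so that the balance of higher and lower turned. In Cdkn1a-negative cells the counts were 313 (5.55%) and 516 (9.15%) of 5641 in photon and 727 (12.6%) and 1002 (17.3%) of 5782 in proton.

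Interferon genes had the largest ratios in both classes of cells. In photon p21-rich cells 47 of the 48 measured were higher and 1 lower; the median log2 ratio was 2.92, against 3.43 in Cdkn1a-negative cells. In proton 45 of 47 were higher and 1 lower, and the medians were 2.97 and 3.27. Over all genes at the same minimum of 5 CPM, 904 were higher and 1041 lower in photon, and 2351 and 1903 in proton. These are counts without a share, and the shares of all genes given above (4.83% to 19.6%) hold from 25 CPM only. Ifit3, an RNA-binding antiviral effector gene, stood at 2.59, 530 and 266 CPM in the p21-rich cells of control, photon and proton, which is 205-fold (69.9 to 993) and 103-fold (34.7 to 501). The chemokine gene Ccl5 stood at 1.73, 199 and 274 CPM, and Trim30a, an inhibitor of inflammatory signalling, at 4.32, 191 and 154 CPM. Zbp1, a nucleic acid sensor gene, and Ifit3b had 0 UMIs in control p21-rich cells, so a floor of 3 counts over the group was set for control. With it they were 37.1-fold and 49.9-fold higher in photon, with lower interval limits of 30 and 40.4. In proton they were 27.1-fold and 31.3-fold higher, with lower limits of 21.5 and 24.9. The chemokine gene Cxcl10 was 77.2-fold higher in photon (13.7 to 3060, from 1 control UMI), and Ddx60, a helicase-like antiviral gene, 34.9-fold higher in proton (15.7 to 96.3). Ifit3 and Ifit3b are near-identical copies whose counts are uncertain.

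Cytokine and squamous genes had the lowest ratios. Cxcl3, Il1a and Ccl20 stood at 0.0572, 0.0684 and 0.121 times control in photon and 0.0369, 0.0404 and 0.0149 in proton p21-rich cells. In Cdkn1a-negative cells the same genes stood at 1.14, 0.357 and 0.405 in photon and 0.45, 0.373 and 0.185 in proton. Sprr2d and Sprr2f stood at 0.158 and 0.168 in photon and 0.0623 and 0.0737 in proton, Ppbp at 0.157 in photon and Psca at 0.0255 in proton. Ppbp stood at 1.48 in photon and Psca at 0.652 in proton Cdkn1a-negative cells. The control values rest on few of the 579 p21-rich cells. After thinning, 26 held a UMI of Cxcl3, 33 of Il1a, 46 of Ppbp, 24 of Psca, 20 of Sprr2d and 14 of Sprr2f. A single control cell held 121 of 257 Sprr2d UMIs, and 1 held 120 of 326 Sprr2f UMIs. Few cells carried the Sprr2 genes in Cdkn1a-negative cells too, where 1 photon cell held 106 of 140 Sprr2f UMIs, so no ratio of theirs is read there.

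The p53 targets went both ways between libraries. Their median log2 ratio to control was 0.23 in photon and 0.30 in proton p21-rich cells, and 0.03 and 0.40 in Cdkn1a-negative cells. In photon p21-rich cells 8 of 38 were higher and 2 lower, and in proton 17 of 39 were higher and 7 lower. These members were counted from a lower minimum mean than the shares of all genes given above. Those shares are therefore no background for them, and an excess over all genes was not tested. Mdm2 was 1.87-fold (1.56 to 2.26) and 2.25-fold (1.83 to 2.78) higher in p21-rich cells of photon and proton, and 1.35-fold (1.22 to 1.5) and 1.90-fold (1.72 to 2.09) higher in Cdkn1a-negative cells. Trp53inp1 was 1.16-fold higher in photon (1.03 to 1.31) and 2.14-fold higher in proton (1.88 to 2.45). Cdkn2a stood at 1.25 (1.00 to 1.57) and 0.858 (0.635 to 1.16) times control in p21-rich cells. S phase genes had median log2 ratios of 0.32 in photon and -0.14 in proton p21-rich cells, and 0.98 and 0.73 in Cdkn1a-negative cells.

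**Figure D5:**
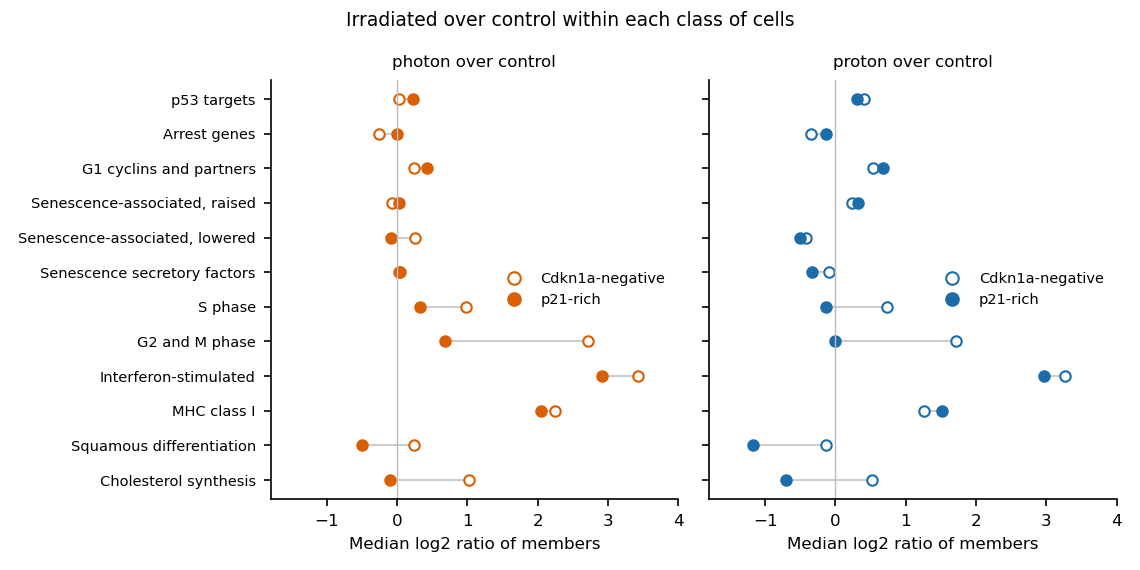
Median log2 ratio of irradiated over control libraries for gene lists, in p21-rich (filled) and Cdkn1a-negative cells (open), photon left and proton right, 1 library each and no test. Interferon medians lie near 3 in both classes, while S phase, G2 and M phase and cholesterol genes are lower in the filled points than in the open ones.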

How the data were processed

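Transcripts of single cells were measured with a 10x Genomics 3′ kit in 3 libraries of sorted organoid cells. The authors deposited raw UMI counts per gene and barcode, made with Cell Ranger 7.0.1 on mm10 per the submitters' processing notes (7.0.0 per the file headers). The notes do not state whether intron reads were counted. In the deposited matrices there were 14266, 15926 and 14525 barcodes with 40166701, 47514102 and 37116107 UMIs (control, photon, proton), all with at least 500 UMIs. Gene positions are from GENCODE mouse release 21 (GRCm38), where 32235 of 32285 IDs matched.

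Each cell within the limits was thinned once to 2000 UMIs (seeded), and thinned counts were summed per library and class. The 6 sums were fitted in edgeR 4.0.16 (R 4.3.3; glmQLFit, glmQLFTest) with class and library, totals as library sizes, a mean of at least 5 CPM, 2 residual degrees of freedom and Benjamini-Hochberg adjustment. Shares carry Clopper-Pearson and ratios of CPM exact Poisson (conditional binomial) intervals at 95%, with a floor of 3 counts for a count of 0. No doublet caller was run. An alternative left out the deepest 5% of cells. The pairing of the 2 sums of a library comes from the shared library. Tested on simulated data for this contrast (10007 genes), the fit called 40 of 40 genes changed 3-fold, 36 of 40 changed 2-fold and 20 of 40 changed 1.5-fold, with 2 false calls. The simulation gave all genes the same fixed dispersion, which was set in advance and not estimated from these sums. Each changed gene had the same fold in all 3 libraries. The simulation therefore does not cover genes whose contrast differs between treatments, and its 2 false calls give no error rate for the calls above. DESeq2 1.42.0, other thinning, scaling, filters, thresholds and weights were alternatives.

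The members, the 23 gene lists and 12 marker lists were chosen with earlier results of these data known. Named genes are the 12 highest and 12 lowest fold changes among called genes of at least 25 CPM that moved one way in all 3 libraries, members of the p53, arrest, G1 and senescence lists, up to 4 called members per other list, and the 6 highest and 6 lowest ratios per irradiated library. Krt8 falls outside this rule and was chosen after its values were seen. Of 686 listed symbols 3 were not matched, and some genes that the rule names are not reported here. P-values cover no spread beyond that between these 3 libraries. The quasi-likelihood fit shares its estimate of spread across genes. A p-value therefore does not rest on the values of its own gene alone.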

Additional observations from a re-analysis of the deposited data

Results flagged for a closer look

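For 4 of the named genes the exact 95% interval of the ratio of p21-rich to Cdkn1a-negative cells lay wholly above 1 in the control library and wholly below 1 in at least 1 irradiated library. The difference between libraries was not tested, and no cause was weighed. Fdps, an enzyme gene of cholesterol synthesis, had log2 ratios of 0.45 in control, -1.21 in photon and -1.34 in proton. Krtdap, a keratinocyte differentiation gene, had 0.74, -2.81 and -2.85. Igfbp6, a binding protein gene of insulin-like growth factors, had 1.51, -1.87 and -0.21. Serpinb2, a protease inhibitor gene, had 0.76, -0.38 and -1.35. Igfbp6 and Serpinb2 were not called in the fit over the 3 libraries.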

How the results depend on the processing

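The contrast was recomputed under 18 alternatives. Against 1521 genes higher and 719 lower, TMM factors gave 995 higher, DESeq2 429 higher and 476 lower, and the keratin weighting 626 and 334, while a limit of 5 Cdkn1a UMIs gave 980 higher. Without the replicate block, which the pairing by library supplies, 6 were higher and 0 lower (531 and 226 at an unadjusted p under 0.05). Leaving out each library gave 608 to 2159 higher and 269 to 1010 lower. Of 173 called genes of the lists and extremes, 157 kept the call under TMM factors, 100 under DESeq2, 124 under keratin weighting, 165 without control, 114 without photon, 139 without proton and 3 without the block. Applying the Cdkn1a limit after thinning turned Sprr2d (-0.50), Sprr2f (-1.31), Cxcl3 (-0.14) and Cxcl2 (-0.11). Ccl5 turned at 4000 UMIs (-0.08) and under keratin weighting (-0.22), which also took Ccn2 to -0.00. The cause was not tested. The shares with at least 1 and at least 3 Cdkn1a UMIs after thinning were 21.7% and 2.14% in control, 37.9% and 6.86% in photon and 27.1% and 2.64% in proton, and with at least 5 as counted 2.14%, 6.03% and 2.17%. Genes higher and lower in photon p21-rich cells were 511 and 535 at 5 Cdkn1a UMIs and 904 and 1041 at a mean of 5 CPM, where proton had 2351 and 1903. Depth limits genes near 5 CPM, where 1 UMI of the 506 proton cells is already 0.988 CPM.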
